A study of Mus musculus with 12 samples.

Results

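The genes described here are the 33 listed members of the unfolded protein response and the integrated stress response, taken by symbol from the 39666 genes of the deposited count table. All 33 were in the table, and 32 passed the filter on low counts. Chac1 did not, and its counts are given below. By role, 14 members are chaperones and folding enzymes of the endoplasmic reticulum (ER), 3 serve ER-associated degradation, 6 are stress sensors or transcription factors and 10 are targets of the type that ATF4 controls.

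RNA came from eosinophils in the lung lavage of wild-type C57BL/6 mice with allergic airway inflammation, 8 to 12 weeks old. Ovalbumin (20 µg) with alum (4 mg) was given on days 0 and 7, a mist of 1% ovalbumin was inhaled for 40 minutes on each of days 16 to 18, and lavage followed on day 19. The gate was side-scatter-high, CD45+, CD11b+, Siglec-F+, with low to middle CD11c and Ly6G. Lavage fluid was pooled over mice, and every pool was sorted on surface TREM-1, an activating myeloid receptor, into TREM-1+ and TREM-1- cells, which gave 6 pairs of libraries. Both fractions therefore share genotype, strain and exposure, and the data hold no eosinophils of unexposed mice.

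Proteins that enter the ER are folded by luminal chaperones and by disulfide isomerases. When unfolded protein accumulates, the sensors IRE1 (gene Ern1), ATF6 and PERK (gene Eif2ak3) become active: IRE1 splices Xbp1 mRNA into the form that encodes an active transcription factor, ATF6 is cut in the Golgi to release one, and PERK phosphorylates the translation factor eIF2. Phosphorylated eIF2, which other kinases also produce on amino acid shortage, viral RNA or heme deficiency, lowers translation in general and raises that of ATF4, and this branch is called the integrated stress response. XBP1 and ATF6 raise chaperone and degradation genes, ATF4 raises genes of amino acid uptake and synthesis, and Xbp1 is known to be required for eosinophil development. Counts per gene do not separate spliced from unspliced Xbp1 and do not show eIF2 phosphorylation or protein.

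TREM-1- libraries held 16513387 to 21234053 counts and TREM-1+ libraries 8626701 to 19274912, the latter having fewer in all 6 pairs. Trem1, the sorted antigen, rose in 6 of 6 pairs (log2 fold change 1.62 ± 0.07, SE). All 8 markers fixed for eosinophils were detected, with a summed level of 5028 to 7648 CPM (counts scaled to the TMM-adjusted library total) in TREM-1- and 4905 to 7346 in TREM-1+ libraries. The similar sums hide differences between the fractions: Siglecf, Ccr3, Il5ra, Il1rl1 and Adgre1 were called lower in TREM-1+ cells and Prg2 and Alox15 higher, and the part of this in the members' values was not tested. The libraries of lavages 1 and 2 lay much closer to each other than any other libraries of a fraction did: the chi-square per gene between them, which counting noise alone would put at 1, was 5.26 in TREM-1- and 6.88 in TREM-1+ cells, against 20.6 to 191 for all other pairs. Whether these are independent pools is uncertain, so results are also given without them. The labels do not say that the 6 pools came from separate mice, and the p-values speak only for the variation among them.

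Of the 32 members tested, 4 were higher and 2 lower in TREM-1+ cells at an adjusted p below 0.05 (edgeR's quasi-likelihood test with the lavage as a block and Benjamini-Hochberg adjustment over 18302 genes). Over all tested genes 9.82% were called, 3.1% higher and 6.72% lower. Sel1l, Atf5, Calr and Hsp90b1 were the higher members, and Xbp1 and Hspa5 the lower ones. Sizes were modest: the absolute log2 fold change had a median of 0.074 over the 32 members, and of 0.13 over all tested genes. The difference had the same sign in 6 of 6 lavages in 4 members (Sel1l, Xbp1, Slc7a5 and Slc3a2), where 13.4% of all tested genes had it. In 0 members did the CPM of the 6 TREM-1+ libraries lie wholly outside that of the 6 TREM-1- libraries, and 0.951% of all tested genes were so separated. With library totals in place of TMM factors (trimmed mean of M values), the median over all genes rose from 0.0043 to 0.13 (log2 fold change) and the members' split became 11 higher and 1 lower, and that of all genes moved the same way, to 1880 higher of 2256 called. The log2 fold changes below are relative to the TMM scale.

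**Figure D1:**
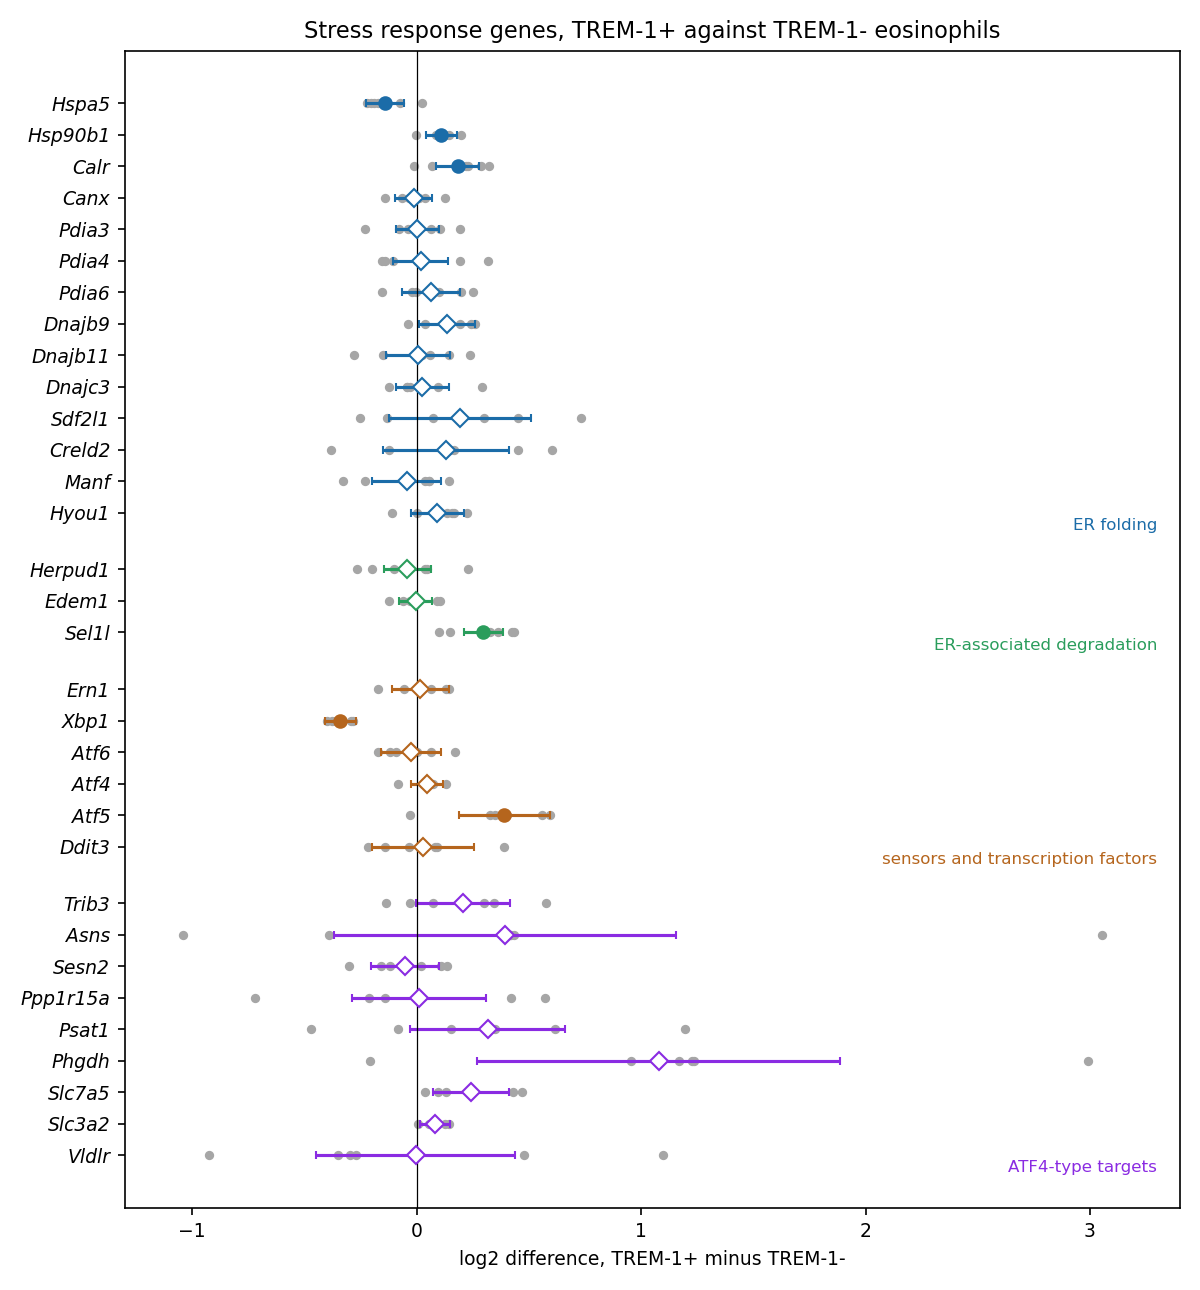
Log2 difference between TREM-1+ and TREM-1- eosinophils (x axis) for the 32 tested members (y axis), grouped by role. Large symbols are the edgeR log2 fold change with its 95% confidence interval, filled where called, and grey points are the paired differences of the 6 lavages. Xbp1, called lower, and Sel1l, called higher, have all 6 grey points on 1 side of 0, and the widest intervals are those of the ATF4-type targets Phgdh (0.27 to 1.89) and Asns (-0.37 to 1.16).

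Xbp1 encodes the transcription factor of the IRE1 branch. It measured 361, 368, 265, 241, 265 and 282 CPM in the TREM-1- libraries of lavages 1 to 6, and 287, 279, 204, 187, 216 and 232 CPM in their TREM-1+ partners. All 6 partners were lower, although the highest TREM-1+ libraries, those of lavages 1 and 2, overlapped the TREM-1- libraries of the other lavages. The mean fell from 297 ± 54.1 CPM in TREM-1- to 234 ± 40.6 CPM in TREM-1+ cells (SD, n = 6), a log2 fold change of -0.34 ± 0.03 (SE, edgeR adjusted p = 7.04e-09). Paired differences lay between -0.28 and -0.40. Xbp1 kept its call in each fit that left out a lavage, in lavages 3 to 6 alone, in lavages 1 and 2 alone and with library totals.

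The enzyme that splices Xbp1 did not pass the test. Ern1 had 42.9 ± 3.11 and 43.4 ± 2.10 CPM in TREM-1- and TREM-1+ cells (SD, n = 6), and the 95% interval of its log2 fold change ran from -0.11 to 0.14. Rtcb, the ligase that joins the cut Xbp1 mRNA, is no member but was called lower (log2 fold change -0.15 ± 0.05, SE, edgeR adjusted p = 0.0405). Its call was lost without lavage 1, 2, 3, 4 or 5, with adjusted p from 0.0606 to 0.187, in lavages 3 to 6 alone (0.196), by limma-voom (0.0528) and with library totals (-0.026, adjusted p = 0.821). Bloc1s1, the best-known mRNA that IRE1 degrades, had a log2 fold change of -0.15 ± 0.13 (SE, edgeR adjusted p = 0.609). Of 3 such substrates tested 0 were called and 0 had an unadjusted p below 0.05, beside 9.82% and 19.7% of all tested genes. DESeq2 and limma-voom also called 0, and 3 genes are too few to be told apart from those shares.

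Atf6, the sensor that is itself a transcription factor, had a log2 fold change of -0.024 (95% interval -0.16 to 0.11), and its levels in all 12 libraries lay between 34.8 and 41.0 CPM. Mbtps1, the protease that makes the first cut in ATF6, was higher in 6 of 6 pairs by 0.15 ± 0.05 (log2 fold change, SE) and missed the threshold (edgeR adjusted p = 0.0787). For the PERK gene Eif2ak3 the value was 0.07 ± 0.05 (adjusted p = 0.529). Tmbim6 (log2 fold change -0.19 ± 0.03, SE, edgeR adjusted p = 8.15e-05), an ER membrane protein gene that restrains IRE1, fell, and Zc3h12a (0.24 ± 0.06, adjusted p = 0.00821), an endoribonuclease gene best known for cutting inflammatory mRNAs, rose. Tmbim6 was not called with library totals (-0.059, adjusted p = 0.410), and Zc3h12a lost its call without lavage 4 (adjusted p = 0.0513). In all, 1 of 16 other sensor and regulator genes tested was higher and 2 were lower, beside 3.1% and 6.72% of all tested genes.

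ATF4 is the transcription factor of the integrated stress response, and ATF5 and CHOP (gene Ddit3) are transcription factors whose genes lie downstream of it. Atf4 was among the most abundant members, at 254 ± 54.6 and 262 ± 56.6 CPM in TREM-1- and TREM-1+ cells (SD, n = 6), and did not pass the test (log2 fold change 0.04, 95% interval -0.027 to 0.12). Most of its spread lay between lavages: lavage 1 held 342 and 357 CPM and lavage 5 held 200 and 207 CPM. ATF4 is controlled mainly through translation of its mRNA, which RNA counts do not show. Ddit3 had 12.2 ± 1.68 and 12.5 ± 1.97 CPM (SD, n = 6) and a log2 fold change of 0.029 (95% interval -0.20 to 0.26).

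Atf5 was higher in 5 of 6 pairs. TREM-1- libraries of lavages 1 to 6 held 28.6, 22.4, 8.87, 10.1, 8.36 and 10.8 CPM, and TREM-1+ libraries 42.2, 33.9, 8.68, 13.3, 10.5 and 13.7 CPM. Both libraries of lavages 1 and 2 stood above all those of the other lavages, and lavage 3 was the pair without a rise. The fitted log2 change of 0.39 ± 0.10 (SE) was called (edgeR adjusted p = 0.00746). It was 0.26 in lavages 3 to 6 alone and not called there (adjusted p = 0.484), and the call was also lost without lavage 1 (adjusted p = 0.0916) or lavage 2 (adjusted p = 0.0798). In GENCODE vM21, Atf5 shares up to 82 exonic bases with Nup62 and Il4i1 on the opposite strand. In TREM-1- and TREM-1+ cells Nup62 averaged 28.5 and 26.1 CPM and Il4i1 3.47 and 3.93 CPM, neither called (adjusted p = 0.417 and 0.793), and the part of such reads in the Atf5 values was not tested. Of the 6 sensors and factors, 1 was therefore higher and 1 lower (33.3%, with 9.82% over all tested genes). With library totals the split was 2 and 1, where 12.3% of all tested genes were called.

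**Figure D2:**
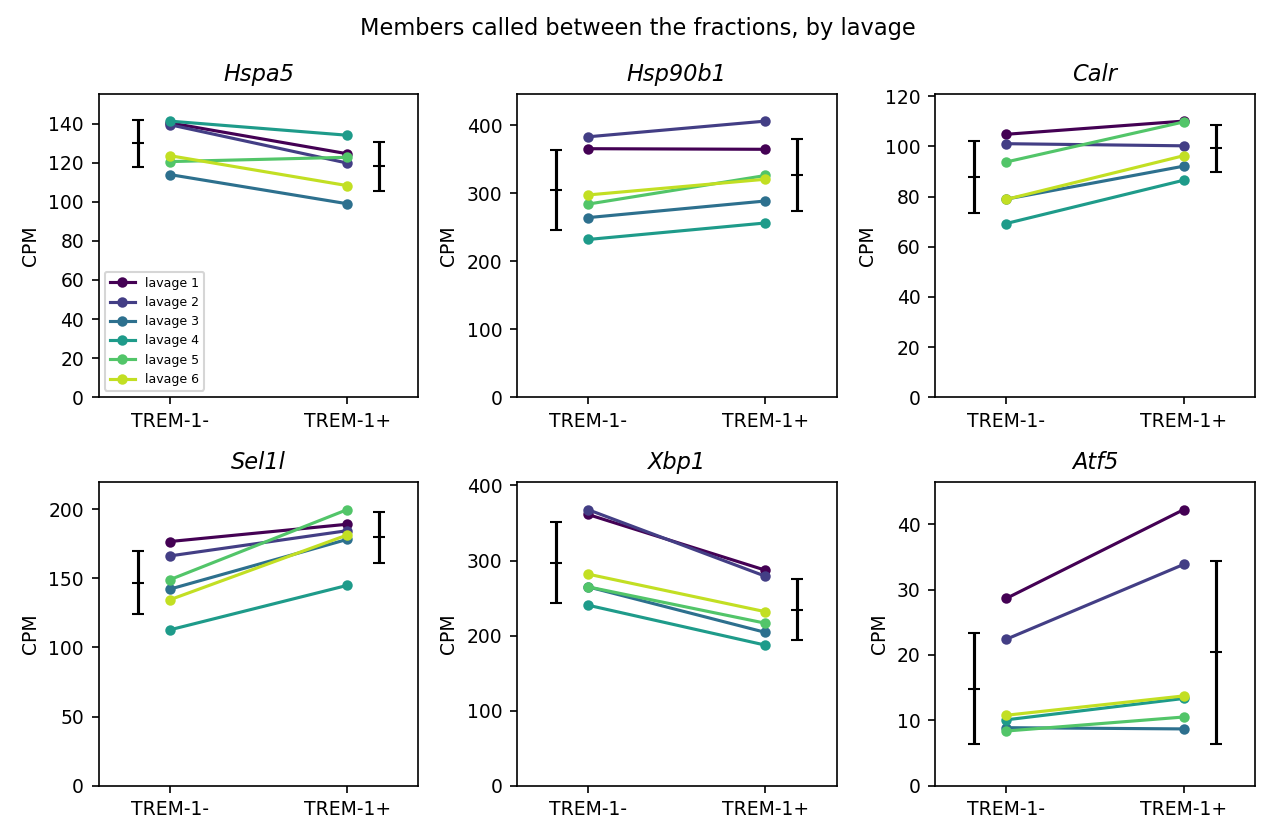
Normalised level (y axis, CPM from 0) of the 6 called members in TREM-1- and TREM-1+ libraries (x axis), with a line for each lavage and black bars for the mean ± SD of the 6 libraries of a fraction. Every line of Xbp1 falls and every line of Sel1l rises, while in Atf5 lavages 1 and 2 start at 28.6 and 22.4 CPM and the other lavages at 10.8 CPM or less.

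Most ER chaperones and folding enzymes did not pass the test. Of 14 members, 2 were called higher and 1 lower (21.4%), where 9.82% of all tested genes were called. Their median log2 fold change was 0.045 against 0.0043 for all tested genes. The group's median difference was -0.013 and -0.054 in lavages 1 and 2 and 0.15, 0.044, 0.14 and 0.11 in lavages 3 to 6. With library totals the split was 4 higher and 0 lower, and the group's median was 0.17 where that of all genes was 0.13. It was 0.096 in lavages 3 to 6 alone, 0.070 without lavage 1 and -0.0017 in lavages 1 and 2 alone.

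Hspa5 encodes BiP, the HSP70 chaperone of the ER lumen and the most widely used marker of ER stress. Its TREM-1- libraries held 140.4, 139, 114, 141, 121 and 124 CPM in lavages 1 to 6, and its TREM-1+ libraries 125, 119.8, 98.99, 134, 123 and 108 CPM. The level was lower in 5 of 6 pairs, lavage 5 being the exception, and the fractions overlapped. The fitted log2 change was -0.14 ± 0.04 (SE), with an edgeR adjusted p = 0.0256. This call was lost without lavage 1 (adjusted p = 0.110), 2 (0.0942), 3 (0.0718) or 6 (0.115), in lavages 3 to 6 alone (-0.11, adjusted p = 0.273) and with library totals (-0.012, adjusted p = 0.913).

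Hsp90b1, which encodes GRP94, the HSP90 chaperone of the ER, went the other way. It held 365, 383, 264, 232, 284 and 297 CPM in TREM-1- libraries and 364, 406, 288, 256, 326 and 320.4 CPM in TREM-1+ libraries. Lavage 1 alone showed no rise, and lavages 1 and 2 were the highest in both fractions. The log2 fold change of 0.11 ± 0.03 (SE) was called (edgeR adjusted p = 0.0356). This call was lost without lavage 2 (adjusted p = 0.0526), 3 (0.0867), 4 (0.0891), 5 (0.112) or 6 (0.0589), and in lavages 1 and 2 alone (0.06, adjusted p = 0.543). It was kept without lavage 1 (adjusted p = 0.0238) and in lavages 3 to 6 alone (0.14, adjusted p = 0.0409).

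Calr encodes calreticulin, the calcium-binding chaperone of glycoproteins. It held 105, 101, 79.0, 69.3, 93.8 and 78.9 CPM in TREM-1- libraries, and 110.1, 100.2, 92.1, 86.5, 109.8 and 96.3 CPM in TREM-1+ libraries. It rose by 0.18 ± 0.05 on the log2 scale (SE, edgeR adjusted p = 0.00926). A rise was seen in lavages 1 and 3 to 6, with paired differences of 0.22 to 0.32 in lavages 3 to 6 and of 0.071 and -0.012 in lavages 1 and 2. Without lavage 4 the adjusted p was 0.0573, and in lavages 1 and 2 alone the log2 fold change was 0.05 (adjusted p = 0.770). Calr was called in lavages 3 to 6 alone (0.26, adjusted p = 0.00282). Canx, the membrane-bound relative of calreticulin that binds the same glycans, had a log2 fold change of -0.013 (95% interval -0.095 to 0.069).

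The other chaperones were not called. The disulfide isomerase genes Pdia3, Pdia4 and Pdia6 had log2 fold changes of 0.0032, 0.018 and 0.064, with 95% intervals that reached no further than -0.10 and 0.19. Among the cochaperones of BiP, Dnajb9 was higher in 5 of 6 pairs (0.14, 95% interval 0.012 to 0.26, edgeR adjusted p = 0.195), while Dnajb11 and Dnajc3 had values of 0.0053 and 0.026. Hyou1, an HSP70-like nucleotide exchange factor, had a value of 0.093 and Manf, a secreted ER stress protein gene, one of -0.044. Sdf2l1 (0.19, 95% interval -0.12 to 0.51) and Creld2 (0.13, -0.15 to 0.41), among the most strongly induced ER stress genes in many cells, had the lowest levels of the group, at 4.12 to 11.4 CPM, and the widest intervals. Dnajb9 and Hyou1 were called higher with library totals only (adjusted p = 0.0118 and 0.0322).

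The ER stress response element (ERSE) is the promoter motif through which ATF6, with the factor NF-Y, acts on chaperone genes. Both strands of the 250 bases before RefSeq gene starts (build GRCm38.p6) were searched for its letters, CCAAT and CCACG with 9 bases between them. It was found in 7 of the 29 members that had a promoter in the table (Hspa5, Hsp90b1, Calr, Canx, Pdia6, Dnajc3 and Creld2) and in 0.113% of all 32851 promoters. The sequences below are those of the 3 called chaperones, shown because the same motif stands before genes called in opposite directions. Hspa5 was the one called lower, and its call depended on single lavages and on the TMM scale. Capitals mark the motif on either strand, and the gene's start lies to the right.
Hspa5, chr2:34772010-34772058, + strand: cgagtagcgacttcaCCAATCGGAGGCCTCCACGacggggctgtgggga
Hsp90b1, chr10:86705518-86705671, - strand: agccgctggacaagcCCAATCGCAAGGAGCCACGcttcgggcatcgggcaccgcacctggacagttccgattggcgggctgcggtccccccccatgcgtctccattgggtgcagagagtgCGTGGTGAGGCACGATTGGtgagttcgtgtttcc
Calr, chr8:84847060-84847108, - strand: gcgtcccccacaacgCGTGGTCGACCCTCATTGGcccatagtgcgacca

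Hspa5 and Calr hold 1 match each, in opposite orientation, and Hsp90b1 holds 2. Canx, Pdia6, Dnajc3 and Creld2 carry the motif as well, and their log2 fold changes, from -0.013 to 0.13, did not pass the test. A match is a description of the sequence and not of binding. The XBP1-type motif TGACGTGG, whose last bases are the reverse complement of the CCACG of the ERSE, was found in 0 of the 29 members and in 0.563% of all promoters.

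Sel1l encodes the adaptor of the HRD1 ubiquitin ligase, through which misfolded ER proteins leave for degradation. Its TREM-1- libraries held 177, 166, 142, 113, 149 and 134 CPM in lavages 1 to 6, and its TREM-1+ libraries 189, 184, 178, 145, 199.6 and 181 CPM. All 6 pairs rose, by log2 differences of 0.10 and 0.15 in lavages 1 and 2 and of 0.33 to 0.43 in lavages 3 to 6, and the TREM-1+ library of lavage 4 lay below the TREM-1- libraries of lavages 1, 2 and 5. The mean rose from 147 ± 22.8 to 179.6 ± 18.6 CPM (SD, n = 6), with a log2 fold change of 0.30 ± 0.04 (SE, edgeR adjusted p = 6.87e-06). The call held without each lavage in turn and in lavages 3 to 6 alone, and in lavages 1 and 2 alone the adjusted p was 0.0597 (log2 fold change 0.14).

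The other degradation members did not pass. Herpud1, a membrane protein gene of the same ligase complex, had a log2 fold change of -0.042 (95% interval -0.15 to 0.063), and Edem1, which helps to deliver misfolded glycoproteins, one of -0.0046 (-0.080 to 0.070). Syvn1, for the HRD1 ligase itself, and Derl1, Os9 and Vcp are among 25 other degradation genes tested, of which 0 were called. At an unadjusted p below 0.05 there were 3 of the 25, of which 0 were higher, beside 19.7% of all tested genes, and DESeq2 and limma-voom called 0. Herpud1 was the single member with the second form of the stress element, ATTGG and CCACG with 1 base between them (ATTGG is the reverse complement of CCAAT), which 0.0304% of all promoters hold. Its sequence also carries the ATF4-type element described below, and both are in capitals, the latter first.
Herpud1, chr8:94386302-94386402, + strand: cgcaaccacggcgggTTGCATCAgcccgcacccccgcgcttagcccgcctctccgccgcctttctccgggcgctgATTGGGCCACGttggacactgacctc

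For the ATF4-type targets, which respond to amino acid shortage and to eIF2 phosphorylation of any origin, 0 of 9 tested members passed edgeR's adjusted threshold. At an unadjusted p below 0.05 there were 3, all higher, where 19.7% of all tested genes had such a p. DESeq2, which gave no adjusted p for Phgdh, called 0, and limma-voom called 1, Slc7a5. Their median log2 fold change was 0.20, and 7 of the 9 values were above 0. The median depended on single lavages: it was 0.072 without lavage 3 and 0.12 without lavage 2. Without lavage 1 it was 0.13, but Chac1 also passed the filter there, so that value covers 10 members. In lavages 1 and 2 alone the median was 0.042. Phgdh did not pass the filter in that fit and Chac1 did, so its 9 members are not the same 9. By lavage the group's median difference was 0.35, 0.075, 0.42, 0.0052, 0.071 and 0.094. With library totals 4 were called higher and 0 lower.

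Slc7a5 and Slc3a2 encode the light and the heavy chain of the LAT1 transporter of large neutral amino acids, and both were higher in 6 of 6 pairs. Slc7a5 held 34.5, 26.8, 19.8, 21.4, 14.4 and 17.9 CPM in TREM-1- libraries and 47.8, 29.4, 26.7, 22.9, 16.9 and 18.4 CPM in TREM-1+ libraries (log2 fold change 0.24 ± 0.08, SE, edgeR adjusted p = 0.0618). It was called without lavage 6 (0.29, adjusted p = 0.0459), in lavages 1 and 2 alone (0.33, adjusted p = 0.00654) and by limma-voom (0.27, adjusted p = 0.0248). Slc7a5 was not called by edgeR without lavage 1, 2, 3, 4 or 5 (adjusted p from 0.0663 to 0.324). Nor was it called in lavages 3 to 6 alone (0.20, adjusted p = 0.466). Slc3a2, far more abundant, averaged 325 ± 66.2 and 344 ± 67.5 CPM in TREM-1- and TREM-1+ cells (SD, n = 6), with a log2 fold change of 0.083 (95% interval 0.016 to 0.15, edgeR adjusted p = 0.124).

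Phgdh and Psat1, which catalyse the first and second steps of serine synthesis, were scarce. Phgdh had 0 to 50 counts per library and at most 4.52 CPM, in lavage 4. Its log2 fold change was 1.08 (95% interval 0.27 to 1.89, higher in 5 of 6 pairs, edgeR adjusted p = 0.0908), and it was called without lavage 5 (1.401, adjusted p = 0.0377) and with no filter on low counts (1.08, adjusted p = 0.0493). In contrast to most members its highest levels were in lavages 3 to 6. Psat1, at 4.71 to 11.8 CPM, had a value of 0.32 (95% interval -0.028 to 0.66) and was called without both lavages 3 and 4 (0.54, adjusted p = 0.0480). In lavages 3 to 6 alone edgeR called neither Phgdh (0.81, adjusted p = 0.299) nor Psat1 (0.21, adjusted p = 0.761).

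Trib3, a pseudokinase gene that feeds back on ATF4, had a log2 fold change of 0.20 (95% interval -0.0047 to 0.41). Its paired differences were 0.35, 0.58 and 0.30 in lavages 1 to 3 and -0.14, 0.071 and -0.029 in lavages 4 to 6. Trib3 reached edgeR's threshold in lavages 1 and 2 alone (0.47, adjusted p = 0.000361), pools whose independence is uncertain. Dropping both pools left a Trib3 value of 0.049, far from a call (edgeR adjusted p = 0.931). Sesn2, a stress-induced inhibitor of the mTORC1 kinase, and Ppp1r15a, which encodes GADD34, the subunit that directs dephosphorylation of eIF2, had values of -0.051 and 0.01. For Ppp1r15a the paired differences ran from -0.72 in lavage 5 to 0.57 in lavage 4. Vldlr, a lipoprotein receptor gene, had 2.16 to 7.53 CPM and a value of -0.0048.

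Asns encodes asparagine synthetase, the classic target of the amino acid response. It had only 7 to 75 counts per library, with 2.72, 3.90, 0.381, 3.23, 1.03 and 2.60 CPM in TREM-1- and 3.70, 2.96, 3.60, 1.54, 1.401 and 3.49 CPM in TREM-1+ libraries. The difference changed sign between lavages, and the log2 fold change of 0.39 had a 95% interval from -0.37 to 1.16. Chac1, which encodes a glutathione-degrading enzyme, had 0 to 29 counts per library and was not tested.

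The promoter element of these genes is the C/EBP-ATF response element, searched here as TGATGNAA on both strands. It was found before Herpud1, Chac1, Asns and Vldlr among the 29 members and in 3.45% of all promoters. The Asns element is shown because that gene is the reference target of the response.
Asns, chr6:7693210-7693247, - strand: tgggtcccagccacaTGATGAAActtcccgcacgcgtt

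A list of 45 further ATF4-type targets, none of them a member, gave 38 genes with enough counts, of which 7 were higher and 4 lower, beside 3.1% higher and 6.72% lower over all genes. Among amino acid and one-carbon genes, 4 of 15 were higher and 1 was lower. Slc7a11, the cystine transporter gene, rose from 138 ± 34.0 to 162 ± 40.8 CPM (SD, n = 6), with a log2 fold change of 0.22 ± 0.04 (SE, edgeR adjusted p = 0.000149). Slc7a1, which encodes a cationic amino acid transporter, rose from 50.5 ± 18.5 to 61.8 ± 23.3 CPM (0.29 ± 0.06, adjusted p = 0.000336), and both were higher in 6 of 6 pairs. Slc1a5, for a glutamine and neutral amino acid transporter, rose by 0.34 ± 0.09 (adjusted p = 0.0142), a call lost without lavage 3 (adjusted p = 0.050014), 4 (0.0947) or 5 (0.0624). Slc38a2, for the SNAT2 transporter, fell in 6 of 6 pairs by 0.15 on the log2 scale (adjusted p = 0.00326), but not with library totals (-0.022, adjusted p = 0.808). The remaining higher gene, Mthfd2 of mitochondrial folate metabolism (0.29 ± 0.09, adjusted p = 0.0376), lies outside the rule for named genes and is added because the count is small. It was not called without lavage 1, 2, 4, 5 or 6 (adjusted p from 0.0687 to 0.120) or in lavages 3 to 6 alone (0.301).

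Among 13 tRNA synthetase genes on the list, 3 were higher and 1 lower, beside 3.1% and 6.72% of all tested genes. Aars, for alanyl-tRNA synthetase, was higher in 6 of 6 pairs, at 50.5 ± 19.1 against 37.1 ± 15.01 CPM (SD, n = 6), and its log2 fold change of 0.44 ± 0.07 (SE, edgeR adjusted p = 9.71e-06) was called in every fit that kept the lavage block. Eprs (0.22 ± 0.06, adjusted p = 0.0228) and Iars (0.29 ± 0.09, adjusted p = 0.0251) were also higher. Eprs lost its call without lavage 1, 2, 4 or 5 (adjusted p from 0.0530 to 0.0808) and Iars without lavage 1, 2, 3, 4 or 6 (0.0514 to 0.110), and in lavages 3 to 6 alone neither was called (0.184 and 0.241). Wars1, a tryptophanyl-tRNA synthetase gene also known to be induced by interferon gamma, was called lower at the threshold itself (-0.13 ± 0.04, adjusted p = 0.049999), and not without lavage 1, 2, 3, 5 or 6 (0.0765 to 0.240), in lavages 3 to 6 alone (0.421) or with library totals (-0.0042, adjusted p = 0.971).

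The regulators among these targets went down where they were called. Cebpb, which encodes a C/EBP factor that pairs with ATF4 on the response element and acts in many other settings, fell from 448 ± 59.0 to 286 ± 29.6 CPM (SD, n = 6), by 0.64 on the log2 scale (edgeR adjusted p = 1.42e-14). Ddit4, for REDD1, an mTORC1 inhibitor induced by ATF4, glucocorticoids and hypoxia, fell from 35.9 ± 4.12 to 25.0 ± 2.59 CPM, by 0.52 (adjusted p = 2.31e-06). Both were lower in 6 of 6 pairs and were called in all 14 alternative fits. The other 8 of 10 tested genes were not called, and Atf3, a stress-induced factor, had a value of 0.11 ± 0.20 (SE, adjusted p = 0.836).

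Among 17 genes of eIF2 kinases, eIF2, its exchange factor and its phosphatase, 1 was higher and 1 lower. Over all tested genes 3.1% were higher and 6.72% lower. Eif2ak2, for the RNA-activated kinase PKR, which interferons induce, fell from 138 ± 42.1 to 112 ± 30.3 CPM (SD, n = 6; log2 fold change -0.30 ± 0.04, SE, edgeR adjusted p = 4.13e-06) in 6 of 6 pairs. Oma1, the mitochondrial protease that relays stress to the heme-regulated kinase, rose by 0.17 ± 0.05 (adjusted p = 0.0150) in 6 of 6 pairs, and was not called without lavage 2 (adjusted p = 0.0547) or in lavages 3 to 6 alone (0.15, adjusted p = 0.176). Eif2ak4, for the amino acid sensor GCN2, had a value of -0.017 ± 0.06 (adjusted p = 0.934).

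Machinery of the secretory pathway showed few calls. Of 23 other folding and redox genes, Cnpy3, for a chaperone of Toll-like receptors, was higher (log2 fold change 0.21 ± 0.07, SE, edgeR adjusted p = 0.0386) and Serp1, for a stress-associated membrane protein of the translocon, was lower (-0.17 ± 0.04, adjusted p = 0.00127). Cnpy3 was not called without lavage 4, 5 or 6 (adjusted p from 0.139 to 0.187) or by DESeq2 (0.0545), and Serp1 not in lavages 3 to 6 alone (adjusted p = 0.0512) or with library totals (-0.048, adjusted p = 0.540). Of 27 translocation, signal peptidase and glycosylation genes 0 were called, 3 had an unadjusted p below 0.05 (1 higher, with 19.7% over all tested genes), and DESeq2 and limma-voom called 0. Of 12 genes of the mitochondrial unfolded protein response 0 were called, 0 had an unadjusted p below 0.05, and the same tools called 0. Over all 10 lists 10 of 161 genes were higher and 8 lower, beside 3.1% and 6.72% of all tested genes. With library totals the lists gave 31 and 3, a scaling under which 2256 of all 18302 genes (12.3%) were called and 1880 of these were higher.

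**Figure D3:**
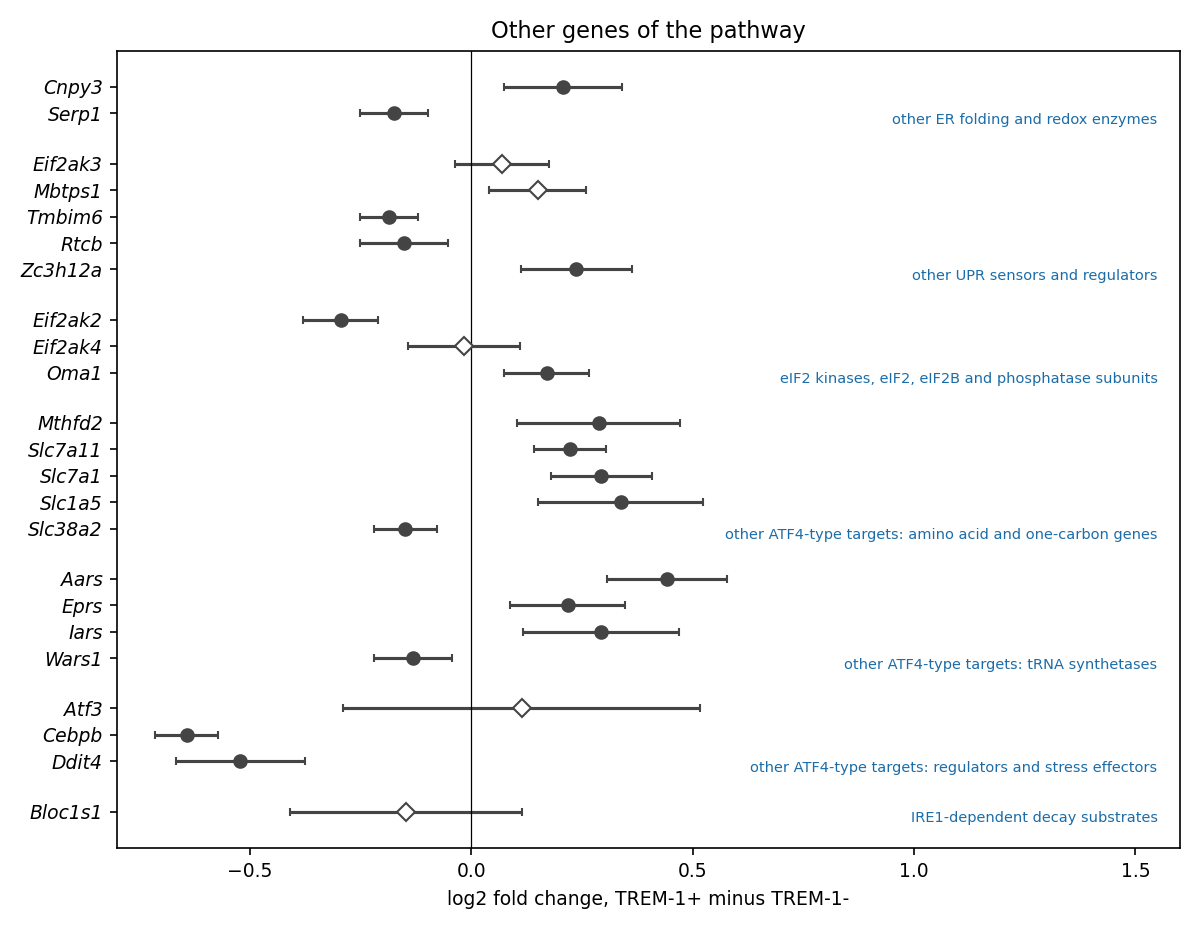
Log2 fold change with 95% confidence interval (x axis, TREM-1+ minus TREM-1-) of the 18 called genes of the pathway that are not members and of 5 genes named by rule that were not called (y axis, open diamonds), by list. Amino acid transporters and tRNA synthetases stand mostly to the right of 0, up to 0.44 for Aars, and Cebpb (-0.64) and Ddit4 (-0.52) to the left.

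Members' levels differed widely between lavages. Lavage accounted for a median of 84.1% of the variance of log2 CPM over the 32 tested members, against 65.1% over all tested genes, and the fraction for 2.71% against 5.07%. A factor with 6 levels takes up more variance by construction than one with 2, so the shares of lavage and fraction should not be set against each other. The mean of both fractions was highest in lavage 1 in 16 members and in lavage 2 in 9, where 17.8% and 13.1% of all tested genes had their highest mean. This mean was lowest in lavage 4 in 13 members, but the share of all tested genes lowest there was not determined. Atf5 had the widest spread of the 6 sensors and factors, its highest lavage mean being 4.04 times its lowest, while Atf6 (1.11 times) and Ern1 (1.14 times) were nearly level. Among ATF4-type targets the spread was widest in the scarcer Phgdh (16.6 times), Ppp1r15a (3.28 times) and Asns (2.82 times). Of those above 10 CPM in every library, Trib3 and Slc7a5 had the widest (2.63 times each).

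**Figure D4:**
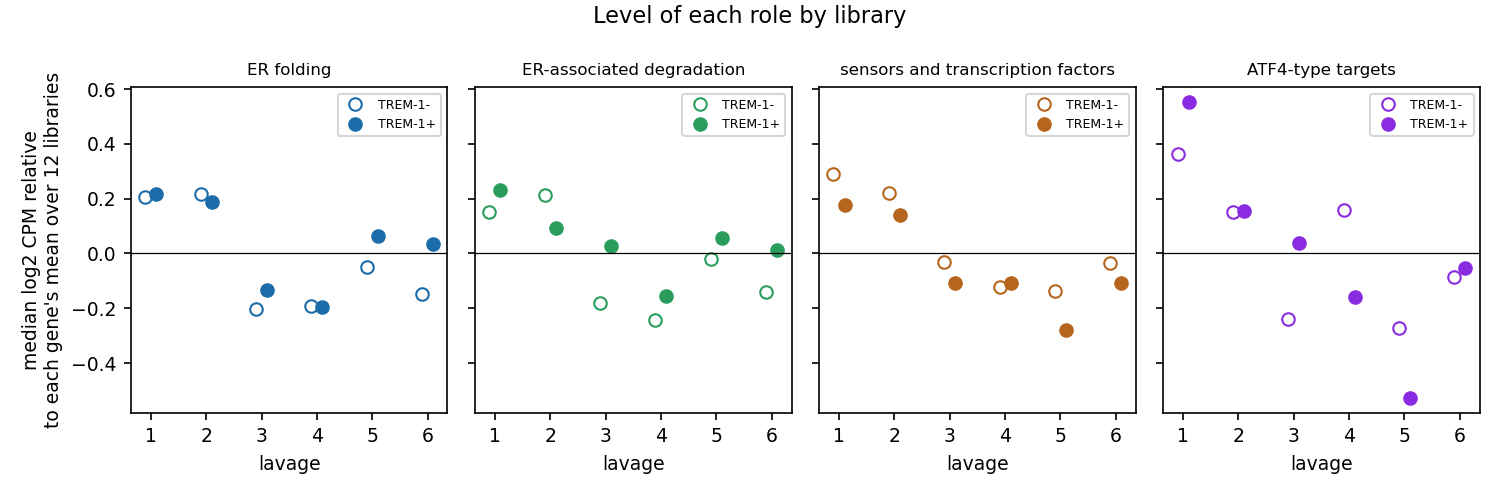
Median log2 CPM of each role's tested members relative to each gene's mean over 12 libraries (y axis), by lavage (x axis) and fraction (open TREM-1-, filled TREM-1+). ER folding genes stand at 0.19 to 0.22 in the libraries of lavages 1 and 2 and lower in the others, and the ATF4-type targets range from 0.55 in the TREM-1+ library of lavage 1 to -0.53 in that of lavage 5.

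Per kilobase of the longest protein-coding transcript (GENCODE vM21), the most abundant members in TREM-1- cells were Atf4 (147 CPM per kilobase), Xbp1 (139), Slc3a2 (116) and Hsp90b1 (108). In TREM-1+ cells Atf4 measured 152, Slc3a2 122, Hsp90b1 116 and Xbp1 110 CPM per kilobase. Chac1 (0.398), Vldlr (0.474) and Phgdh (0.565) were the scarcest in TREM-1- cells.

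Markers of other cells also moved with the sort. In bulk libraries fewer cells of a type and less RNA per cell cannot be told apart. Plasma and B cells are rich in ER chaperones and XBP1, and of their 10 measured markers 4 were tested and 0 called. Their sum was 11.7 to 18.2 CPM in TREM-1- libraries, against 10.8 to 20.4 CPM in TREM-1+ libraries, higher in 3 of 6 pairs. Mzb1, not tested, was at 0 in 5 of the 6 TREM-1- libraries and at 0.327 CPM in that of lavage 3. In TREM-1+ libraries it held 0.407, 0.205 and 0.382 CPM in lavages 3, 4 and 5 and 0 in the others. T and innate lymphoid cell markers were higher in 6 of 6 pairs (8.58 to 50.5 against 9.50 to 100.9 CPM, 6 of 8 called higher), and stood at 8.58 to 11.1 CPM in lavages 1 and 2. The sums were also higher in 6 of 6 pairs for alveolar macrophage (430.4 to 911 against 531 to 1144 CPM, 2 of 6 called higher) and dendritic cell markers (71.6 to 91.0 against 97.7 to 128 CPM, 2 of 7 called higher). Much of the alveolar macrophage sum came from Car4, Abcg1 and Chil3, while Marco was at 0 in both libraries of lavages 1, 2 and 3. Most of the dendritic cell sum came from Itgae (46.3 to 92.2 CPM, called higher). Sums were lower in 6 of 6 pairs for monocyte and interstitial macrophage (709 to 1319 against 587 to 1184 CPM), neutrophil (1761 to 2582 against 1453 to 2444 CPM) and basophil and mast cell markers (12.7 to 45.2 against 9.44 to 22.2 CPM, with Mcpt4 and Tpsb2 at 0 throughout). Calls in these lists were 2 higher and 1 lower of 6, 6 higher and 2 lower of 8, and 1 lower of 3. A few abundant genes made up most of these sums, which therefore do not stand for whole lists. In the neutrophil list Retnlg (909 to 1802 CPM) was called lower, while S100a8 and S100a9 were called higher (log2 fold change 2.35 and 1.45). Ly6c2 (389 to 1090 CPM, called lower) and Csf1r (173 to 255 CPM, not called) led the monocyte and macrophage list. Gata2 (7.71 to 35.6 CPM, called lower) led the basophil and mast cell list. Epithelial markers, of which 4 of 12 were tested and 0 called, summed to 22.4 to 83.9 CPM in 11 libraries and to 271 CPM in the TREM-1- library of lavage 5, with Clca1 at 145 CPM. The part of these cells in the members' values was not tested.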

How the data were processed

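Libraries were made from total RNA with depletion of ribosomal RNA and read as 100 bp paired ends, per the labels. The authors deposited estimated counts per gene, all whole numbers, and log2 CPM values, which were recomputed as a check and not tested. Tools listed in the submitters' processing notes, with no role, are edgeR 3.42.4, R 4.3.0 and kallisto 0.45.0, and the build is GRCm39. The sources used here do not state whether counting was by strand, and exons of Hsp90b1, Manf, Ddit3, Dnajb9, Pdia3, Pdia6 and Ppp1r15a, besides those of Atf5, overlap genes on the opposite strand in GENCODE vM21.

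From the counts, edgeR 4.0.16 (R 4.3.3) was run over all genes with TMM factors, filterByExpr (minimum count 10, minimum total 15), robust quasi-likelihood fits and the lavage as a block. That fractions of 1 lavage are paired is stated in the design text, and deviations from the fraction means correlated at 0.13 to 0.50 within the 6 pairs. The lavage 3 pair (0.13) correlated less than its best match outside the pair (0.15), and lavage 1 was nearly tied (0.493 against 0.491). Calls needed an adjusted p below 0.05. CPM values use TMM-scaled totals. Alternatives were no block, library totals, DESeq2 1.42.0, limma-voom (limma 3.58.1), no filter, each lavage left out, and sets of lavages. The procedure was tested on simulated data.

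Named were all members, up to 3 called genes in each direction of every pathway list, and Eif2ak3, Eif2ak4, Mbtps1, Atf3, Cebpb, Ddit4, Bloc1s1 and Slc7a11. Members and lists were chosen with earlier results of these data known. The plasma cell markers Ighm and Igkc and the T cell markers Trac and Trbc2 were not analysed here.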

Additional observations from a re-analysis of the deposited data

Results flagged for a closer look

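The TREM-1+ library of lavage 4 stood apart in Sel1l, at 144.8 CPM where the other 5 TREM-1+ libraries held 178.1 to 199.6 CPM. Its gap to the nearest library was 0.644 of the range of the fraction, above Dixon's 95% critical value for 6 samples. This library also had the lowest total count (8626701). Over the 64 groups examined, chance alone would give about 3.2 such cases and 1 was found. The paired difference of lavage 4 (0.36 on the log2 scale) lay within those of the other lavages, and Sel1l was also called without that lavage.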

How the results depend on the processing

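In 84 combinations of a called member with 1 of 14 alternative fits, 0 changed sign and 27 lost the call. Among uncalled members 14 combinations gained a call, and 51 changed sign with no call in either fit. Without the replicate block the fit called 83 genes in all, 0 of the 33 members (0 in ER folding, 0 in degradation, 0 among sensors and factors) and 2 other genes of the pathway. With library totals alone, 12 members, 4 ATF4-type targets and 34 other pathway genes were called, and the ER folding median was 0.17. ATF4-type targets called numbered 1 with limma-voom (Slc7a5), 1 with no filter on low counts (Phgdh) and 1 with Atf5 and Ddit3 counted among them (Atf5). Over all genes limma-voom called 10.3% and the fit with no filter 6.84%. Lavages 1 and 2 alone gave 1 ER folding call, 0 degradation calls and 2 ATF4-type calls (Trib3 and Slc7a5). In that fit, whose pools may not be independent, 8.45% of all tested genes were called. Lavages 3 to 6 alone gave 2 ER folding calls (Hsp90b1 and Calr), 1 degradation call (Sel1l) and 0 ATF4-type calls. They also gave 1 call among sensors and factors (Xbp1), where 6.26% of all tested genes were called. Without both lavages 3 and 4 there were 0 ER folding calls, 1 ATF4-type call (Psat1) and 10 other pathway genes, beside 7.05% of all tested genes. Leaving out 1 lavage at a time gave 1 to 2 ER folding calls, 1 to 2 among sensors and factors, 0 to 1 ATF4-type calls, 3 to 6 over all members (3 without lavage 2) and 11 to 14 other pathway genes. Those fits called 7.75% to 8.66% of all tested genes. Leaving out 1 lavage moved the ER folding median between 0.033 and 0.070 and the ATF4-type median between 0.072 and 0.27. Chac1, Asns and Phgdh had 0 to 75 counts per library, and how far depth limits their values was not tested.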
